A study of Mus musculus with 6 samples.

Results

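The genes described here are 10 genes of tissue-resident macrophages: the surface receptor genes Lyve1, Timd4, Folr2, Cd163, Vsig4, Fcrls and Gfra2, the genes Fcna and Pf4 of secreted proteins, and the enzyme gene Cbr2. They were taken by symbol from the deposited count table, as 10 of its 57010 genes. They were selected on their counts in these same libraries, in which each of the 10 stood higher in the libraries labelled ICI, so their levels and fold changes are given as a description and without a test. The libraries came from mouse heart cells sorted as CD45 positive and CD90.2 negative, which the labels describe as immune cells other than T cells. All 6 libraries carry the genotype label Ova DTG, all come from mice with heart-restricted expression of ovalbumin, and all of these mice had received ovalbumin-specific OTI CD8 T cells. The 3 libraries labelled ICI (immune checkpoint inhibitors) come from mice given 200 µg of antibody against CTLA-4 and 200 µg of antibody against PD-1, and the 3 labelled isotype from mice given isotype control antibody. The labels state neither the age of the mice nor whether cells of several mice were pooled. The titles of both groups name myocarditis, and no gene of the table checks which library received which antibody, so every direction below rests on the labels. An exchange of the labels would turn all of them, and it was the libraries labelled isotype that held more of the inflammatory monocyte-derived genes described below.

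Macrophages of the adult heart include a population that persists by self-renewal from embryonic or early precursors and a population that is refilled by blood monocytes. The first is often called TLF, after TIMD4, LYVE1 and FOLR2, and is known for taking up dying cells, haemoglobin and other debris around vessels and muscle fibres. Its receptor and secreted genes are usually low in macrophages that have recently arisen from monocytes. Many macrophage genes are bound by the lineage factor PU.1, and factors of the MAF family are known to act in resident macrophages.

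The stretches upstream of the start sites are shown first, because the 10 genes differed between the groups together. Of the 10 genes, 8 had a promoter entry in the RefSeq table (GRCm38.p6), with 9 entries in all because Folr2 has 2 start sites; Lyve1 and Gfra2 had none. The 250 bases before each start were searched on both strands for AGGAAGT, a PU.1 motif, and for TGCTGA, the core bound by MAF factors, and the matches are in capitals. The 3 promoters that held both letter strings are printed 5′ to 3′ along the gene, all from the minus strand: Fcna at chr2:25627975-25628224, Fcrls at chr3:87263525-87263774, and the upstream start of Folr2 at chr7:101857191-101857440. Cd163, from the plus strand at chr6:124304401-124304650, is printed as a promoter with neither.
Fcna: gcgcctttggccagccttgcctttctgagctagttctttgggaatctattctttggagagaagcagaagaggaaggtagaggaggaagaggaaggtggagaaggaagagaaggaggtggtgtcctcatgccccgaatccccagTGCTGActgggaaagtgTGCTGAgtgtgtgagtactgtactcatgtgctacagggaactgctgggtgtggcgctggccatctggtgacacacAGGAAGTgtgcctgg
Fcrls: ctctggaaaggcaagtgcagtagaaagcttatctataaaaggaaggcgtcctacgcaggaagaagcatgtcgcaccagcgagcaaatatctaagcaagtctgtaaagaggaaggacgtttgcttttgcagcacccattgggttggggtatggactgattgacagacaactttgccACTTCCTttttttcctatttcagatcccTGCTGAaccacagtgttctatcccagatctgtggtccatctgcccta
Folr2: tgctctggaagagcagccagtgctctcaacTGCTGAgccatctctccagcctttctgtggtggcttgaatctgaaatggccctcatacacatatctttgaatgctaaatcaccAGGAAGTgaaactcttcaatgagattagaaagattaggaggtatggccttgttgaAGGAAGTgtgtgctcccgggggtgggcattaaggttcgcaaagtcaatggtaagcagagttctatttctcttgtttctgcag
Cd163: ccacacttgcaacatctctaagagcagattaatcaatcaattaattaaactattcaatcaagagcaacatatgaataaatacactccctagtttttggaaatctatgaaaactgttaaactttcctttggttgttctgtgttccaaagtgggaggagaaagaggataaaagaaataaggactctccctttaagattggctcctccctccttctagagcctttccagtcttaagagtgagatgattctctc

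The PU.1 letters were found in 4 of the 8 genes (Folr2, Fcna, Fcrls and Pf4), and in 7.7% of all 32536 promoters of the same length. The MAF core was found in Timd4, Folr2, Fcna and Fcrls, and in 16.1% of all promoters. Both stood in Folr2, Fcna and Fcrls, against 1.36% of all promoters. The 8 genes were counted once each over their 9 promoters, so Folr2 had 2 chances, while the percentages count single promoters. In Fcna the PU.1 match began 15 bases before the start site and the MAF matches 107 and 90 bases before it. In Fcrls they began 75 and 47 bases before it, and the upstream Folr2 promoter had PU.1 matches at 137 and 82 bases and a MAF core at 220 bases. The AP-1 motif TGANTCA stood in Folr2 alone (6.73% of all promoters) and TATAAA in Fcrls alone (12.3%). CACGTG, AAAGGTCA, TTCNNNGAA and an ISRE-like motif stood in none of the 8 genes, and in 6.04%, 1.35%, 7.04% and 2.98% of all promoters. Vsig4, Cbr2 and Cd163 held neither of the first 2 motifs in this window. The GC content of the 9 stretches ran from 36.8% in Cd163 to 55.6% in Cbr2, beside a median of 52.4% for all promoters. Only Cbr2 and Fcna (54.4%) lay above that median.

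Total counts ran from 21528274 to 30736316 per library. The sort was checked on its antigens: Ptprc, which encodes CD45, was at 1300 ± 107 CPM (counts scaled to a common library total; SD, n = 3) in the libraries labelled ICI and 1012 ± 58.8 CPM in those labelled isotype (not called, edgeR adjusted p = 0.164; called higher with upper-quartile factors, 0.0102, library totals alone, 0.00551, and the strict filter, 0.0449), and Thy1, which encodes CD90, had 4 and 2 counts over each group. Genes shared by macrophages of any origin were abundant in every library, at 23690 to 26890 CPM summed over 18 genes in the ICI group and 22220 to 24630 CPM in the isotype group. Replicate 3 of both groups carried the female transcript Xist (2786 and 1844 counts), with 6 and 130 counts of 4 Y-linked genes, while the other 4 libraries had 0 to 12 Xist counts and 3620 to 5821 Y-linked counts. Each group thus held 1 library of this kind. In these bulk libraries fewer cells of a type and less RNA per cell cannot be told apart.

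All 10 genes were abundant in the libraries labelled ICI and close to absent in those labelled isotype. Summed over the 10, the level was 4482, 3951 and 4662 CPM in ICI replicates 1, 2 and 3, and 18.2, 18.7 and 31.2 CPM in isotype replicates 1, 2 and 3. Per 100 CPM of the general macrophage genes the 10 genes held 16.7, 16.7 and 18.3 CPM in the ICI group, and 0.0794, 0.0840 and 0.127 CPM in the isotype group. All 10 passed the filter on low counts. Gfra2, Vsig4, Fcrls and Cd163, with 1, 9, 30 and 78 isotype counts, did so through their ICI counts alone. The choice of the 10 fixed their direction, so passing the filter and being called by edgeR are no evidence about them. Of the 14575 genes tested 68.9% were called, 35.0% higher in the ICI group and 33.9% lower. The groups did not overlap for any of the 10, nor for 73.5% of all genes tested, 45.3% in the same direction. Their log2 fold changes ran from 5.30 to 10.52, with a median of 8.04 against 0.03 for all genes tested, and 4.01% of all genes tested reached at least 4.

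**Figure D1:**
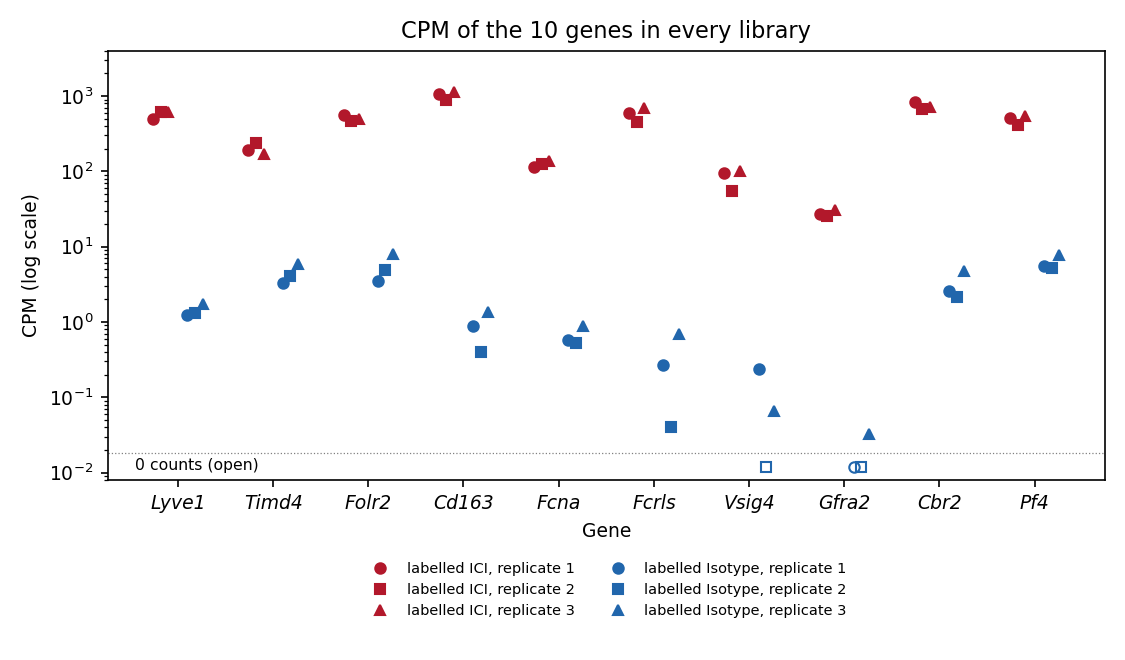
CPM of each of the 10 genes in every library on a log scale, red for libraries labelled ICI and blue for those labelled isotype, with 1 symbol per replicate and open symbols for 0 counts. No blue symbol comes near a red one: the narrowest gap is that of Timd4, where the lowest ICI library was 28.9 times the highest isotype library.

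The 3 genes that name the TLF population came first among the receptors. Lyve1 encodes a receptor for the matrix sugar hyaluronan that also marks lymphatic endothelium. It was at 497, 622 and 619 CPM in ICI replicates 1, 2 and 3, and at 1.25, 1.30 and 1.76 CPM in isotype replicates 1, 2 and 3. The 3 isotype libraries were alike in holding 37, 32 and 54 counts, and the log2 fold change of 8.44 (SE 0.16) moved only between 8.33 and 8.64 over the 15 other settings tried.

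Timd4 encodes a receptor for phosphatidylserine, the lipid that dying cells expose. Its levels were 193, 239 and 172 CPM in the ICI replicates and 3.25, 4.14 and 5.95 CPM in the isotype replicates. It showed the smallest fold change of the 10 (log2 fold change 5.30, SE 0.24), and its isotype level, at 2.21% of its ICI level, was the highest such share.

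Folr2 encodes folate receptor beta, a surface protein that binds folate. Levels of 567, 461 and 497 CPM stood in the ICI replicates and 3.55, 4.95 and 7.94 CPM in the isotype replicates, with a log2 fold change of 6.33 (SE 0.29). The exons of Folr2 overlap an antisense gene, Gm10602, with 511 counts in the ICI group and 51 in the isotype group, and reads of the 2 strands cannot be told apart in these libraries. Folr2 itself had 34555 and 471 counts.

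Cd163, the scavenger receptor for haemoglobin bound to haptoglobin, reached the highest CPM of the 10. It was at 1060, 886 and 1142 CPM in the ICI replicates and at 0.880, 0.406 and 1.37 CPM in the isotype replicates. Its isotype libraries held 26, 10 and 42 counts, against 24166, 21007 and 24584 in the ICI libraries, and the log2 fold change was 9.93 (SE 0.29).

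Vsig4 encodes CRIg, a complement receptor that binds fragments of C3 and is known from Kupffer cells and other resident macrophages. It was measured at 94.3, 55.3 and 101 CPM in the ICI replicates, and at 0.237, 0 and 0.0651 CPM in the isotype replicates, which are 7, 0 and 2 counts. Its ICI libraries varied most among the 10 genes, with a coefficient of variation of 29.4%. The fitted fold of 656 (log2 fold change 9.36, SE 0.50) rests on those 9 isotype counts, and without isotype replicate 1 it was 1764; the ratio of counts was then 2290, with a 95% counting interval of 634 to 18920.

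Fcrls encodes a scavenger protein of the Fc receptor-like family that is known as a marker of microglia. Levels were 594, 453 and 690 CPM in the ICI replicates and 0.271, 0.0406 and 0.683 CPM in the isotype replicates. Its isotype libraries held 8, 1 and 21 counts, so the highest was 16.9 times the lowest. The log2 fold change was 10.47 (SE 0.43), a fold of 1415, and it was 2874 without isotype replicate 3.

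Gfra2, the receptor for the neurotrophic factor neurturin, was the least abundant of the 10 in both groups. It was at 26.8, 25.7 and 30.7 CPM in the ICI replicates, which held 611, 610 and 661 counts. In the isotype group 1 count was seen, in replicate 3, and 0 in replicates 1 and 2. The ratio of pooled counts was 2350, with a 95% counting interval of 421 to 92850, and without isotype replicate 3 the gene was at least 499.8-fold higher against a floor of 3 counts over the group. Counting intervals and floors cover counting error only, since reads copied by PCR are not independent molecules.

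Both secreted members differed in the same way. Fcna encodes ficolin A, a soluble lectin that recognises sugars on microbes and starts the lectin pathway of complement. It was at 116, 126 and 138 CPM in the ICI replicates, with the lowest coefficient of variation of the 10 there (8.85%), and at 0.575, 0.527 and 0.878 CPM in the isotype replicates. The log2 fold change was 7.35 (SE 0.15). An antisense gene that overlaps Fcna, Fcnaos, had 0 counts in both groups.

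Pf4 encodes platelet factor 4 (CXCL4), a heparin-binding chemokine of platelet granules that macrophages also make. It was at 505, 408 and 550 CPM in the ICI replicates and at 5.55, 5.15 and 7.68 CPM in the isotype replicates, the highest isotype level of the 10. Its log2 fold change was 6.11 (SE 0.18). Of 13 platelet markers 6 were tested, 3 called higher in the ICI group (P2ry12, the chemokine gene Ppbp and the thrombin receptor gene F2rl2) and 0 lower by edgeR, also at an unadjusted p under 0.05; without replicate 3 of both groups 1 was called lower. Ppbp had 454 counts in the ICI group and 1 in the isotype group, and F2rl2 323 and 75. Platelet glycoprotein genes had few counts: Itga2b had 35 and 39 counts, Gp9 25 and 3, and Gp1bb 0 and 1. The part of platelet RNA in the level of Pf4 was not tested. Summed over the 13 markers the level was 86.3 to 107 CPM in the ICI group and 19.1 to 26.0 CPM in the isotype group, most of it P2ry12 (83.1 ± 7.33 and 19.5 ± 3.47 CPM), which macrophages such as microglia also express.

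Cbr2, a carbonyl reductase that reduces aldehydes and ketones, was the second most abundant member in CPM in the ICI group and the fourth in the isotype group. It stood at 828, 675 and 722 CPM in the ICI replicates and at 2.61, 2.15 and 4.82 CPM in the isotype replicates, with a log2 fold change of 7.65 (SE 0.29).

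Replicates of a group were close beside the difference between the groups. Isotype replicate 3 held the highest isotype level for 9 of the 10 genes, the exception being Vsig4, which was highest in isotype replicate 1. ICI replicate 2 was the lowest of its group for 7 genes and ICI replicate 3 the highest for 6. Isotype replicate 3 also had the largest total and carried Xist; the part of sex in its higher levels was not tested. Without replicate 3 of both groups the median log2 fold change of the 10 was 8.33, and those of Timd4, Folr2 and Cbr2 were 5.67, 6.73 and 8.10.

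Levels of different genes were compared per kilobase, with the median length of each gene's transcripts (411 bases for Pf4 to 4404 for Cd163). In the ICI group Cbr2 led with 1290 CPM per kilobase, followed by Pf4 with 1187, and their ranges over the 3 libraries overlapped. Folr2 (711), Fcrls (391) and Lyve1 (314) came next, the last pair overlapping, then Cd163 (234), Fcna (131), Timd4 (92.7) and Vsig4 (90.5), the last pair again overlapping, and Gfra2 at 18.8. Cd163, first by CPM, was thus sixth per kilobase, because its transcripts are the longest. The isotype group had another order, with Pf4 at 14.9 CPM per kilobase, Folr2 at 7.67, Cbr2 at 5.55, Timd4 at 2.05, Lyve1 at 0.777 and Fcna at 0.683; Folr2 and Cbr2 overlapped, as did Lyve1 and Fcna. The last 4 there, Fcrls, Cd163, Vsig4 and Gfra2, each overlapped with the next. With the longest transcript of each gene in place of the median, Pf4 came before Cbr2 in the ICI group, Cd163 before Lyve1 and Timd4 before Fcna, and each of these pairs overlapped.

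**Figure D2:**
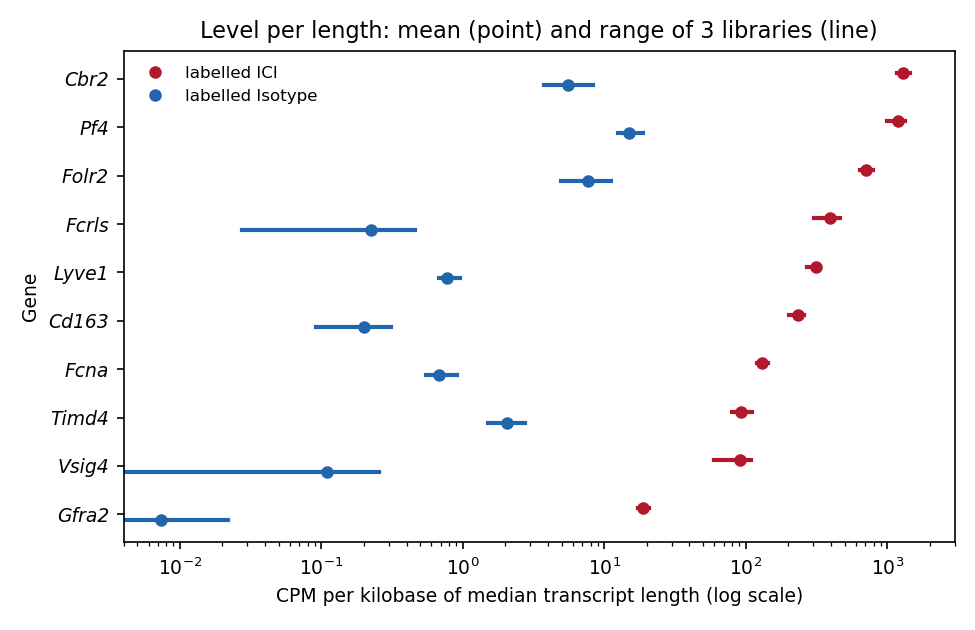
CPM per kilobase of median transcript length on a log scale for the 10 genes, in the order of the ICI group; points are means and lines the range of 3 libraries, and a blue line that reaches the left edge includes a library with 0 counts. The red points fall from 1290 for Cbr2 to 18.8 for Gfra2, while the blue points follow another order, with Pf4 highest at 14.9 and Timd4 above Lyve1, Fcrls and Cd163.

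The make-up of the summed counts of the 10 genes therefore differed between the groups. In the ICI group Cd163 held 23.5% ± 1.04 of them (SD, n = 3), Cbr2 17.0% ± 1.50, Lyve1 13.4% ± 2.33 and Fcrls 13.2% ± 1.67. In the isotype group Pf4 led with 27.6% ± 2.95, before Folr2 with 23.9% ± 3.76 and Timd4 with 19.7% ± 2.21, while Cd163 held 3.80% ± 1.43 and Fcrls 1.30% ± 1.00. Timd4 and Pf4, at 4.68% ± 1.22 and 11.1% ± 0.748 in the ICI group, thus took larger shares of a far smaller total. Fcna held nearly the same share in both (2.91% ± 0.298 and 2.94% ± 0.198), whereas Cbr2 held less in the isotype group (13.8% ± 2.02), where its highest library, at 15.45%, lay just under its lowest ICI library, at 15.49%. The isotype shares rest on 537, 460 and 958 counts per library.

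**Figure D3:**
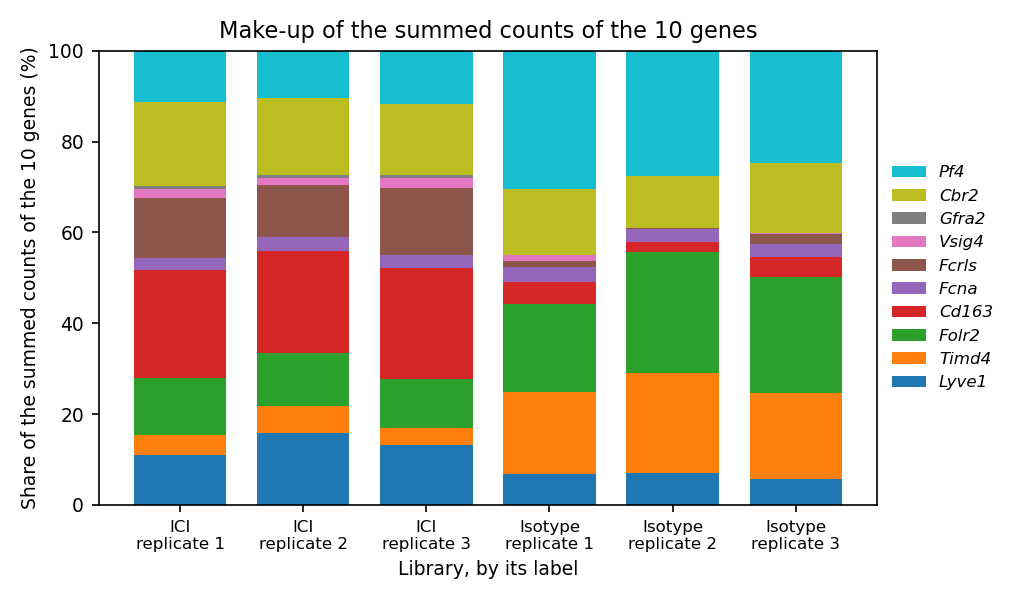
Share of each of the 10 genes in their summed counts, as stacked bars, 1 bar per library. The 3 ICI bars resemble each other, with Cd163 (red) at 22.4% to 24.5%, and the 3 isotype bars are dominated by Pf4, Folr2 and Timd4.

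Other genes known from resident macrophages mostly stood higher in the same libraries. Of 28 such genes, all tested, 23 were called higher in the ICI group, 2 lower and 3 in neither direction, with a median log2 fold change of 4.33 (background 35.0% higher, 33.9% lower). Slco2b1, an organic anion transporter, was at 442 ± 55.9 CPM against 0.345 ± 0.0683 CPM, 1112-fold higher (edgeR adjusted p = 1.03e-09). Wwp1, a ubiquitin ligase, was 11.8-fold higher (edgeR adjusted p = 1.24e-08) and the leukotriene C4 synthase Ltc4s 48.8-fold higher (edgeR adjusted p = 1.38e-08). The lectin genes Cd209f and Cd209g had 1275 and 454 counts in the ICI group and 0 in the isotype group, at least 531-fold and 189-fold higher. Marco and Clec4n were the 2 called lower (log2 fold changes -0.84 and -0.98), and the call of Marco was lost without any of ICI replicates 1, 2 and 3 or isotype replicates 1 and 2 (edgeR adjusted p = 0.0838, 0.0618, 0.0658, 0.054 and 0.113).

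The members' counterparts in other macrophages gave a different picture. Of the 18 general macrophage genes 5 were called higher, 7 lower and 6 in neither direction. Csf1r, the receptor that macrophages need to survive, was 1.9-fold higher (edgeR adjusted p = 4.16e-05), while the cathepsin gene Ctsd was 2.6-fold lower (edgeR adjusted p = 2.6e-05) and the integrin gene Itgam 2.03-fold lower (edgeR adjusted p = 5.32e-05). The median of that list was -0.16 and turned to 0.02 with upper-quartile factors and 0.04 with library totals alone, which shifted all genes upward. Of 18 genes known from monocytes and monocyte-derived macrophages 0 were called higher (0 also at an unadjusted p under 0.05 in that direction, and 0 with DESeq2 or limma-voom, but 1 without isotype replicate 2), 15 lower and 3 in neither, with a median of -2.28. Plac8 was 6.72-fold lower, the nitric oxide synthase gene Nos2 148-fold lower and the coagulation factor gene F10 15.6-fold lower (edgeR adjusted p = 1.95e-05, 0.000116 and 0.000186). Among 10 class II and associated genes Cd81 was called higher (8.5-fold), with 2 higher without isotype replicate 3; 3 were lower, among them H2-DMb1 and H2-DMa (2.14-fold and 1.77-fold), and 6 were not called.

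**Figure D4:**
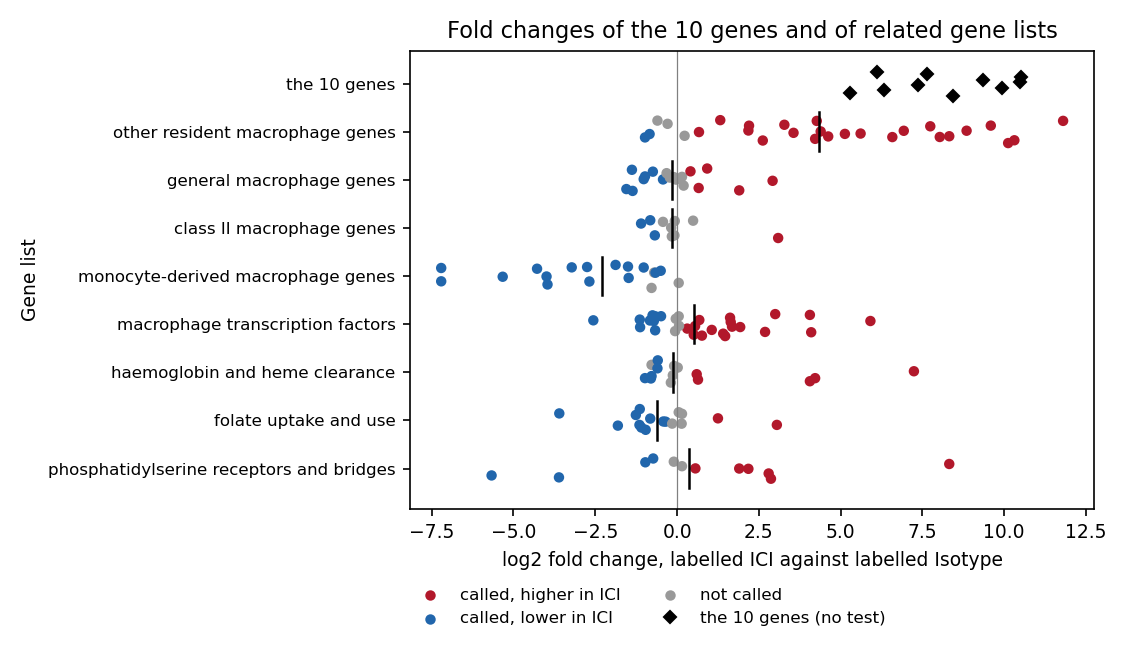
Log2 fold changes, labelled ICI against labelled isotype, of the 10 genes (black diamonds, no test) and of the tested genes of 8 lists, red and blue where called higher or lower and grey where not called; vertical bars are list medians. The 10 genes lie between 5.30 and 10.52, the other resident macrophage genes around a median of 4.33 and the monocyte-derived macrophage genes around -2.28.

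The partners of each receptor did not move as 1 group with it. Around Lyve1, 13 genes that make, bind or cut hyaluronan were examined; 9 were tested, 4 higher and 4 lower. Cd44, the main hyaluronan receptor of leukocytes, was at 521 ± 83.5 and 407 ± 33.2 CPM and was not called (log2 fold change 0.15, edgeR adjusted p = 0.29), although upper-quartile factors and library totals alone called it higher (adjusted p = 0.0323 and 0.0225). The hyaluronidase Hyal2 was 2.35-fold higher (edgeR adjusted p = 7.9e-05), the hyaluronan-cutting Cemip2 2.54-fold lower (edgeR adjusted p = 4.25e-05), and the synthase Has1, at 1.91 ± 1.08 against 0.0713 ± 0.00860 CPM, 22.2-fold higher (edgeR adjusted p = 9.59e-05) and 14.8-fold higher without ICI replicate 1. Has2, Has3 and the receptor Stab2 had 10 and 0, 4 and 12, and 23 and 3 counts and were not tested.

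Around Timd4, 12 of 16 phosphatidylserine receptors and bridging proteins were tested, 6 higher and 4 lower. The bridging protein Gas6, which links phosphatidylserine to the TAM receptors, was at 660 ± 141 CPM against 1.79 ± 0.451 CPM, 319-fold higher (edgeR adjusted p = 9.3e-08). Protein S (Pros1), the other TAM ligand, was 3.74-fold higher (edgeR adjusted p = 2.09e-07). Their receptor Mertk was not called (134 ± 24.5 and 105 ± 14.2 CPM, edgeR adjusted p = 0.353), Axl was lower by 0.73 on the log2 scale (edgeR adjusted p = 0.000895), and Cd300lf, an inhibitory lipid receptor, was 12.2-fold lower (edgeR adjusted p = 4.79e-08). Of the TIM paralogs, Havcr2 (TIM-3) was lower, with a log2 fold change of -0.97 (edgeR adjusted p = 2.56e-05), and Havcr1 and Timd2 had 26 and 2, and 3 and 1 counts.

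Folate genes were more often lower: of 19, 16 were tested, 2 higher and 10 lower, with a median log2 fold change of -0.62; the counts were 3 and 8 with upper-quartile factors and 4 and 8 with library totals alone. The paralogs of Folr2 were nearly silent, Folr1 with 1 and 2 counts and Izumo1r with 2 and 0. Slc46a1, a folate transporter that works at acid pH, was higher by 1.25 (log2; edgeR adjusted p = 0.00355). The reduced folate carrier Slc19a1 was lower by 0.42 (edgeR adjusted p = 0.0181), a call lost without ICI replicate 2 (0.0651) or isotype replicate 2 (0.0657) and with upper-quartile factors (0.136) or library totals alone (0.172). Among the enzymes of one-carbon metabolism Aldh1l1 was 12.1-fold lower, Mthfd1l 3.5-fold lower and Mthfd2l 8.3-fold higher (edgeR adjusted p = 2.72e-07, 3.8e-06 and 2.83e-06).

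Around Cd163, 15 of 16 genes of haemoglobin and heme handling were tested, 5 higher and 5 lower. Spic, a transcription factor of iron-recycling macrophages, was at 14.9 ± 2.36 against 0.764 ± 0.241 CPM, 16.7-fold higher (edgeR adjusted p = 4.55e-07). The paralog Cd163l1 had 54 and 0 counts, at least 22.5-fold higher. Heme oxygenase (Hmox1) was higher by 0.64 on the log2 scale (edgeR adjusted p = 0.000323), whereas ferritin heavy chain (Fth1) was 1.97-fold lower (edgeR adjusted p = 3.26e-05), biliverdin reductase Blvrb 1.74-fold lower (edgeR adjusted p = 5.74e-05), and the protease Adam17, which sheds CD163 from the surface, lower by 0.60 (edgeR adjusted p = 8.78e-05). Haptoglobin (Hp) was not called at 80.1 ± 8.26 and 119 ± 53.8 CPM (edgeR adjusted p = 0.135), but was called lower without isotype replicate 3 (adjusted p = 0.000248).

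Fcna and Vsig4 both belong to complement. Of 14 genes of the lectin pathway 10 were tested, 2 higher and 4 lower (2 lower without replicate 3 of both groups), and of 12 C3 receptors and regulators 11 were tested, 6 higher and 4 lower. C3, the central complement protein, was 8.85-fold lower (edgeR adjusted p = 4.43e-05) and factor B (Cfb) 20.4-fold lower (edgeR adjusted p = 5.7e-05). The paralog of Fcna, Fcnb, had 21 and 51 counts and was called lower by 1.15 on the log2 scale (edgeR adjusted p = 0.0308), a call lost in 9 of 14 other settings, among them leaving out ICI replicate 1 or 3 or isotype replicate 1 or 2 (adjusted p = 0.0527, 0.11, 0.0876 and 0.0767). Of the proteases that ficolins activate, Masp1 was lower by 1.28 (edgeR adjusted p = 0.0158; 0.059 without isotype replicate 3) and Masp2 was not called (44 and 23 counts). The integrin chain Itgb2, which forms complement receptors 3 and 4, was 3.09-fold lower (edgeR adjusted p = 7.16e-07), and Itgam and Itgax, its partners in them, were lower by 1.02 and 0.70. The B cell complement receptor Cr2 was 67.9-fold higher (edgeR adjusted p = 0.000388) and 182-fold higher without isotype replicate 3, and Cr1l was higher by 0.34.

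Relatives of the other members went in both directions. Of 5 Fc receptor-like genes beside Fcrls 3 were tested: Fcrla and Fcrl1, known from B cells, were 21.7-fold and 6-fold higher (edgeR adjusted p = 0.000234 and 0.000734), and Fcrlb 15.7-fold lower (edgeR adjusted p = 1.36e-05; 24.7-fold without ICI replicate 1). Of 10 GDNF family receptors and ligands 1 was tested, Gfra1, with 75 counts against 1 (ratio 93.6, 95% counting interval 16.3 to 3747); 2 of the 10 were called higher without ICI replicate 1 or without isotype replicate 1, 2 or 3. The coreceptor Ret had 17 and 1 counts and the ligand neurturin (Nrtn) 5 and 0, so both partners of Gfra2 were near the counting floor. Among 8 carbonyl reductases 4 were higher and 2 lower. Akr1b8 was 3.9-fold higher (edgeR adjusted p = 0.000284), Akr1a1 1.55-fold lower (edgeR adjusted p = 8.32e-05) and Cbr4 1.83-fold lower (edgeR adjusted p = 0.000834), while the paralogs Cbr1 and Cbr3 were higher by 0.68 and 1.16 on the log2 scale (edgeR adjusted p = 0.00901 and 0.00336). Of 18 relatives and receptors of Pf4 17 were tested, 8 higher and 6 lower. Cxcl12 was 37.6-fold higher and Cxcl2 2.54-fold higher (edgeR adjusted p = 2.9e-07 and 4.2e-06), and the platelet chemokine Ppbp had 454 counts against 1 (ratio 567, 95% counting interval 101 to 22440). The Pf4 receptor Cxcr3 was not called at 7.41 ± 2.47 and 4.34 ± 1.58 CPM (edgeR adjusted p = 0.135), although it was called higher without ICI replicate 2 (0.0367) or isotype replicate 3 (0.0294).

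Transcription factors of macrophages were called higher in 17 of 30 tested cases and lower in 9. Bhlhe41 was at 11.7 ± 2.13 against 0.165 ± 0.0366 CPM, 60.1-fold higher (edgeR adjusted p = 1.42e-07), and Tcf4 was 3.8-fold higher (edgeR adjusted p = 2.7e-07). Nr1h3, the oxysterol receptor LXRα, was 5.91-fold lower (edgeR adjusted p = 8.92e-08). Of the factors whose motifs were searched above, Maf was higher by 1.64 on the log2 scale (104 ± 13.5 and 29.0 ± 5.56 CPM, edgeR adjusted p = 4.65e-06). Spi1, which encodes PU.1, was abundant in both groups at 309 ± 24.9 and 377 ± 14.6 CPM and was lower by 0.49 (edgeR adjusted p = 0.00132). Maf and Spi1 were chosen for their motifs.

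Markers of other cell types also differed, and their part in the levels of the 10 genes was not tested. B cell markers were higher for 7 of 7 genes, at 843 to 1671 CPM summed in the ICI group and 53.5 to 96.9 CPM in the isotype group. Dendritic cell markers were higher for 6 of 8 and lower for 1 (333 to 505 against 56.1 to 104 CPM), neutrophil markers higher for 4 of 9 and lower for 1 (536 to 587 against 397 to 492 CPM; 3 called without isotype replicate 2 and 8 without isotype replicate 3), and T and NK cell markers higher for 5 of 7 tested and lower for 1 (64.1 to 95.4 against 21.1 to 26.8 CPM). Fibroblast markers were higher for 6 of 7 (62.4 to 197 against 10.7 to 14.5 CPM), cardiomyocyte markers for 7 of 7 tested (44.7 to 56.3 against 5.56 to 14.4 CPM) and erythroid markers for 4 of 4 tested (19.3 to 38.8 against 0.325 to 2.56 CPM). In 5 of these lists the genes of smallest p were Ighm for B cells (9.86-fold higher), Cd209a for dendritic cells (1726-fold, on 6 isotype counts, and 1140-fold without isotype replicate 1), S100a9 for neutrophils (1.62-fold), Cd4 for T and NK cells (19.1-fold, and 30.8-fold without isotype replicate 3) and Mb for cardiomyocytes (24.8-fold), with edgeR adjusted p = 4.56e-05, 3.08e-08, 3.45e-05, 3.43e-05 and 1.03e-06. In the T and NK cell list the T cell genes Cd3e, Cd3d, Cd8a and Trac did not follow Cd4. Cd3e was not called (34 and 32 counts), and Cd3d (13 and 8) and Cd8a (20 and 40) were not tested. Trac was called lower (19 and 49 counts), but 0 genes of this list were lower with library totals alone. The other genes called higher in it were Ncr1, Klrb1c, Gzma and Eomes.

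For Lyve1 the lymphatic endothelium was examined in particular. Of 14 lymphatic and blood endothelial markers 10 were tested, 5 higher (Prox1, Cdh5, Kdr, Tek and Egfl7) and 2 lower (Flt4 and Pdpn). Their summed level overlapped between the groups (42.6 to 58.6 and 45.5 to 54.7 CPM), but it mixed genes that moved in opposite directions. Pecam1, which was not called, was on average its largest part (18.7 ± 6.13 and 17.6 ± 3.82 CPM). Pdpn (14.3 CPM) and Flt4 (9.57 CPM) came next in the isotype group. Prox1, the lymphatic master regulator, had 189 and 2 counts (edgeR adjusted p = 1.65e-06), while the lymphatic genes Flt4 and Pdpn were 23.8-fold and 6.72-fold lower (edgeR adjusted p = 6.8e-07 and 1.34e-05). Ccl21a was at 0 counts in all 6 libraries and Mmrn1 at 3 and 1. Lyve1 itself had 39419 counts in the ICI group.

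The 8 genes whose pattern over the 6 libraries lay nearest to the mean pattern of the 10 were sought among 9203 tested genes whose higher group averaged at least 10 CPM, by the root mean square distance of centred log2(CPM + 0.5) values. They were Ednrb (0.194), Igf1 (0.318), Mgl2 (0.341), Fgfr1 (0.354), Colec12 (0.360), Cd209a (0.436), S1pr1 (0.463) and Plxna4 (0.475). Of these, Ednrb, Igf1, Mgl2 and Colec12 also stand on the list of other resident macrophage genes, where they were already counted as higher. On the same measure Fcna (0.262) and Cbr2 (0.265) lay closest to the mean pattern among the 10 and Fcrls (1.13) and Cd163 (1.17) farthest. The endothelin receptor gene Ednrb was at 174, 126 and 213 CPM in the ICI replicates and 0.406, 0.487 and 1.14 CPM in the isotype replicates, again with replicate 3 highest in both groups. The growth factor gene Igf1 stood at 187, 143 and 202 CPM against 0.880, 0.730 and 2.08 CPM, and the lectin gene Mgl2 at 848, 905 and 695 CPM against 6.23, 5.15 and 10.8 CPM. Fgfr1, the collectin-like scavenger receptor Colec12, the lectin gene Cd209a, which also stands on the dendritic cell list, the sphingosine phosphate receptor S1pr1 and the semaphorin receptor Plxna4 averaged 155, 171, 149, 158 and 56.5 CPM in the ICI group and 1.05, 0.183, 0.0731, 1.29 and 0.205 CPM in the isotype group. With 2 groups of 3 libraries, likeness on this measure is mostly likeness in the size of the group difference.

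The genes next to each member in the RefSeq order (GRCm38.p6) were examined too. Of 20 neighbours 13 were tested, of which 8 were called higher, 2 lower and 3 in neither direction, beside 35.0% higher and 33.9% lower among all genes tested; 6 were too low to test and 1 was not in the table. Next to Lyve1, Mrvi1 was at 55.2 ± 7.65 against 0.491 ± 0.0824 CPM (log2 fold change 6.59, edgeR adjusted p = 5.19e-09) and Rnf141 was higher by 0.61. Next to Pf4, Cxcl3 was higher by 1.69 on the log2 scale and Ppbp had its 454 counts against 1, which came from isotype replicate 1. Cd5l, a macrophage gene next to Fcrls, was higher by 2.62 (edgeR adjusted p = 0.025), but it rests on single libraries: it was 6.16-fold higher with all libraries, 3.02-fold without ICI replicate 3, and not called without isotype replicate 1, 2 or 3 (adjusted p = 0.0771, 0.0817 and 0.056). Inppl1 beside Folr2, Msn beside Vsig4 and Dcxr beside Cbr2 were not called (log2 fold changes -0.06, -0.20 and -0.08), at averages of 63.3 to 69.7, 1728 to 1733 and 16.4 to 17.9 CPM. Beside Gfra2, Dok2 was lower by 0.37 (edgeR adjusted p = 0.0241), a call lost without any of ICI replicates 1, 2 and 3 or isotype replicates 1 and 2 (adjusted p = 0.0656, 0.0559, 0.0603, 0.0664 and 0.0888).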

How the data were processed

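RNA of 6 libraries of sorted heart cells was measured; per the labels' protocols they were non-directional SMART-seq V4 libraries. Raw counts, not normalized, were deposited for each Ensembl gene in a single table. STAR 2.7.10a, Salmon 1.10.1 and the build GRCm39 are named in the submitters' processing notes, with no role given. Symbols were matched for 52029 of 57010 identifiers (91.3%). All 6 columns were tied to a sample by library name.

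Counts were tested as deposited with edgeR 4.0.16 (quasi-likelihood, TMM factors, robust; R 4.3.3, limma 3.58.1), on the 14575 genes that passed filterByExpr at a minimum count of 10, with Benjamini-Hochberg adjustment over all of them and a call at an adjusted p under 0.05. Labels name biological replicates, but not whether each is 1 animal. CPM uses library totals; levels per kilobase use the median transcript length of GENCODE M21, an older build than the files', so no coordinates are given for counts. Promoters are from RefSeq (GRCm38.p6). Intervals are exact at 95%.

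The 10 genes and the 25 other lists were chosen with earlier results of these data known. Named were all 10 genes; of each list called genes among the 3 smallest p-values and paralogs or direct partners; Ptprc and Thy1; and the 8 nearest patterns. Some genes that the rule takes are left out of the text. Genes outside this rule are neighbours or were chosen after their values were seen. Alternatives were DESeq2 1.42.0, limma-voom, other scalings and filters, a replicate block, and leaving out libraries.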

Additional observations from a re-analysis of the deposited data

How the results depend on the processing

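All 10 genes stayed higher in the libraries labelled ICI in all 15 other settings, with the median of their log2 fold changes between 7.91 and 8.33 when 1 library, or replicate 3 of both groups, was left out. Their choice fixed this direction, and the lowest ICI library was at least 28.9 times the highest isotype library. These settings could therefore move only the size of the folds. The folds that moved most were those with few isotype counts: Gfra2 (10.52 on the log2 scale) was 9.88 with limma-voom; without isotype replicate 3 it had 0 isotype counts, so it was at least 499.8-fold higher and its fitted value is no measure. Genes called were 10040, and 9124 to 9938 with 1 library left out (4624 to 5068 higher, 4500 to 4870 lower). Calls split into 5102 higher and 4938 lower; with upper-quartile factors they were 6155 and 3849, with library totals alone 6255 and 3724, as the median of all genes moved from 0.03 to 0.21 and 0.23. The count of other resident macrophage genes called lower fell from 2 to 1 with limma-voom, upper-quartile factors, library totals alone and the strict filter (50 counts in 3 libraries), and was 1 to 2 with 1 library left out; the call lost was that of Marco. The count of monocyte-derived genes called higher was 0, and 0 to 1 with 1 library left out (1 without isotype replicate 2). With the replicate number as a block 5079 genes were higher and 4912 lower; deviations of same-numbered libraries correlated at 0.059, 0.096 and 0.156, and replicate 2 correlated better with another number (0.109), so the numbers were not taken to pair the samples. Of 139 tested list genes and neighbours that were candidates for naming, 125 had the same call in all settings run and 14 changed it in at least 1. Depth limits the isotype values of Gfra2, Vsig4, Fcrls and Cd163, which rest on 1, 9, 30 and 78 counts over the group.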
